A study of Bos taurus with 15 samples.

Results

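Subunits of the mitochondrial respiratory chain were followed in caruncular endometrium taken from Japanese Black cows around the time of maternal recognition of pregnancy. A probe of the array was taken when its gene name began with NDUF, UQCR, COX4 to COX8, SDH or ATP5, or when its description named NADH dehydrogenase, ubiquinol-cytochrome c, cytochrome c oxidase, succinate dehydrogenase or ATP synthase. Of the 15208 probes other than controls, 84 met this rule, 71 by gene name and 13 by description alone. They stood for 81 genes, and 80 genes had a probe well above background in 3 or more of 15 arrays, among 6115 named genes of the array with such a probe. The gene left out was represented by a second probe for an ATP synthase alpha subunit, which was well above background in 0 arrays. Of the 80 genes, 33 belonged to complex I, 4 to complex II, 7 to complex III, 16 to complex IV and 14 to complex V. The other 6 were the assembly factors COX15, COX17 and ATPAF2, the coupling factor ATP5S, the pseudogene COXP1 and a transcribed locus similar to ATP synthase, BP106395. By name, no subunit encoded in mitochondrial DNA was among them.

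The respiratory chain moves electrons from NADH and succinate to oxygen and stores the energy as a proton gradient across the inner mitochondrial membrane. Complex I oxidizes NADH, complex II oxidizes succinate and is also an enzyme of the tricarboxylic acid cycle, complex III passes electrons to cytochrome c, complex IV reduces oxygen to water, and complex V, the ATP synthase, uses the gradient to make ATP. Most subunits are encoded in the nucleus, and several subunits of complex IV exist as isoforms that differ between tissues. In ruminants the endometrium of this period nourishes the elongating conceptus with glandular secretions, and the conceptus signals to it with interferon-tau.

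The samples fell into 4 groups, with 1 cow per array. The non-pregnant cows were at day 15 (NP15, n = 4) or day 18 (NP18, n = 4) of the estrous cycle, and the pregnant cows were at day 15 (P15, n = 3) or day 18 (P18, n = 4) of gestation, counting artificial insemination as day 1. All cows were killed at the ranch of an institute, pregnancy was judged from the trophoblast seen in the uterus, and the age of the cows is not given in the sources used here. A cow was sampled once, so a difference between days is a difference between animals. The unit used throughout is the processed signal of a spot divided by the median of its array, called the signal below. Before scaling, the median brightness of an array ran from 315 to 409 in NP15, 545 to 686 in P15, 790 to 838 in NP18 and 407 to 563 in P18. Of the probes, 78.6 to 88.3% were well above background in P15 and 65.6 to 73.9% in P18. In all 15 arrays, 78 of the 80 genes were well above background. The exceptions were COX6A2, in 11 arrays, and ATPAF2, in 14. Endometrial stromal and epithelial markers were present in each array, with summed signals of 768 to 1791 over 10 stromal genes and 139 to 394 over 8 epithelial genes.

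The probes were oligonucleotides of 60 bases with 28.3 to 60% G and C. Their place in the transcript, coding or untranslated, was not assigned here. The hexamer AATAAA, the usual polyadenylation signal near the 3′ end of a transcript, was found in the sense strand of 22 of 84 respiratory chain probes (26.2%) and of 11.3% of all 15208 probes. On the opposite strand it was found in 2.38% and 4.14%. Bases 31 to 60 of the probes on which the single-gene results below rest are given 5′ to 3′, with this hexamer in capitals.
NDUFA4L2: aaacagaagcagccgtgggcaaaatacaat
COX6A1: tggcttaAATAAAtaatttagtcatgacct
COX6B2: ttaagcctcaAATAAAgttgtgttactgtt
COX8: ttgcaacAATAAAgtctatttaaagcgtga
COX7A2: ttgtattagctgccaccAATAAAgcagtct
UQCRFS1: tgttatgctcaaagggtgcagtgtctttga
UQCR11: tgtggacacacagcattaaacctcactctg
ATP5F1: attttctttgAATAAAatttggtacctggc
ATP5F1, subunit b of the ATP synthase stalk, had 2 spots on the array with the same 60 bases. The log2 difference between them ran from -0.47 to -0.10 over 15 arrays, with a median of -0.18, which gives the size of a difference between spots of 1 sequence.

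For most of the 80 genes P15 was the lowest group or P18 the highest. The group mean was lowest in P15 for 65 genes and highest in P18 for 63. The level of all 80 genes in an array was taken as the mean log2 signal after centering each gene on its mean over the 15 arrays. It was -0.515 to -0.476 in P15, -0.450 to 0.0977 in NP15, -0.170 to 0.569 in NP18 and 0.240 to 0.543 in P18. The 3 arrays of P15 were lower than each of the other arrays, and every array of P18 was above each array of day 15. The arrays of NP18 were spread widely, since replicate 4 held the highest value of its group for 64 of the 80 genes and replicate 1 the lowest for 58. In each complex the P18 arrays were above all P15 arrays, whereas in complex V 1 array of NP15, at -0.605, was below those of P15, at -0.541 to -0.462.

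**Figure D1:**
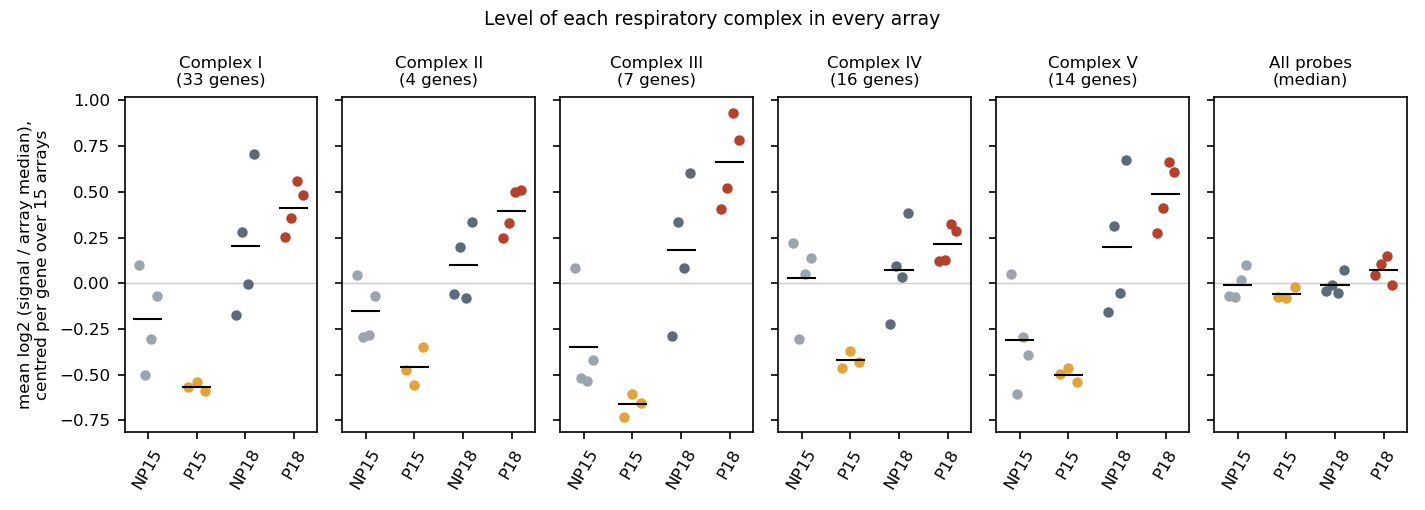
Level of each complex in each array (points) and group mean (line), as the mean over its genes of log2 (signal / array median) centered on each gene's mean over 15 arrays, with the median of all 13164 probes tested at the right. In every complex the P15 arrays lie below all P18 arrays, for complex I at -0.588 to -0.540 against 0.252 to 0.557.

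Between day 15 and day 18 of pregnancy, respiratory chain genes were widely higher. In limma with Benjamini-Hochberg adjustment over all 13164 probes tested, 48 of 80 genes were called higher in P18 than in P15 at an adjusted p below 0.05, whereas 10.9% of all probes were. Called lower were 2 genes, NDUFA4L2 and COX6B2, and 5.48% of all probes. The median log2 fold change of the 80 genes was 0.96 and that of all probes was 0.12. For 37 of the genes called higher the difference was over 2-fold. In 68 of 80 genes every P18 array lay above each P15 array, and this held for 26.7% of all probes. The genes are bright, with 69 of 80 among the 3291 brightest probes. Of those probes 17.8% were called higher, with a median of 0.31, and 46 of the 69 genes were.

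No scan day and no slide held arrays of more than 1 group, and P15, NP18 and P18 were scanned on 1 day each. The scan day and the group therefore cannot be told apart in P18 against P15 or in the comparisons that follow. When limma took scan day as a random block, it called 0 of the 80 genes and 0.0% of all probes in P18 against P15. At an unadjusted p below 0.05 this fit had 45 genes higher and 2 lower, beside 8.87% of all probes higher. It also left 0 genes called in each of the comparisons that follow, that of NDUFA4L2 included. Within NP15, which was scanned on 3 days, the 2 arrays of one day had levels of 0.0977 and -0.450 and the arrays of the other days -0.237 and -0.120. Each array was a different cow and the other days held 1 array each, so day and cow cannot be told apart there. NP15 was the only group scanned on more than 1 day. The scan day fit used a correlation of 0.336 between arrays of one day. A fit with slide as a random block used 0.112 between arrays of one slide. The count of genes called higher fell to 28, 28 and 23 without replicate 1, 2 or 3 of P15.

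Complex I had 22 of its 33 genes called higher in P18 than in P15, with a median log2 fold change of 1.02 and all 33 numerically higher. Of the 7 genes of the part that oxidizes NADH, 6 were called, with a median of 1.21. NDUFS1, its large iron-sulfur subunit, had signals of 12.7, 10.8 and 13.0 in P15 and of 21.8, 26.0, 38.2 and 28.5 in P18, and its log2 fold change was 1.21 (SE 0.28, adjusted p = 0.0123). NDUFV1, which binds the flavin that takes electrons from NADH, had 28.1, 30.6 and 28.9 in P15 and 53.2, 47.7, 53.3 and 58.8 in P18, with a log2 fold change of 0.86 (SE 0.25, adjusted p = 0.0301). In both genes the groups were fully separated. NDUFS4, an accessory subunit of this part, rose from 19.2, 16.8 and 20.02 in P15 to 37.5, 46.5, 58.6 and 52.7 in P18, a log2 fold change of 1.37 (SE 0.30, adjusted p = 0.00908). NDUFV2, an iron-sulfur protein next to the flavin, had a log2 fold change of 1.03 (SE 0.38, adjusted p = 0.075) and was not called.

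In the part of complex I grouped here as reducing ubiquinone, 3 of 7 genes were called, with a median of 0.87. NDUFS3, one of its core subunits, had 35.9, 39.0 and 38.4 in P15 and 65.9, 74.3, 83.6 and 70.5 in P18 (log2 fold change of 0.96, SE 0.20, adjusted p = 0.00816). The core subunits NDUFS7 and NDUFS8 were not called, with log2 fold changes of 0.32 and 0.31. The signals of NDUFS8, which holds a pair of iron-sulfur clusters, were 11.5, 12.6 and 11.3 in P15 and 15.0, 12.7, 13.6 and 17.7 in P18, separated by a small gap. Of the 19 genes of the membrane arm and the remaining accessory subunits, 13 were called, with a median of 1.02. The largest difference was that of NDUFB2, a small subunit of the membrane arm, at 3.34, 4.25 and 3.89 in P15 and 10.4, 13.4, 11.9 and 16.4 in P18 (log2 fold change of 1.75, SE 0.39, adjusted p = 0.0099). NDUFAB1, the mitochondrial acyl carrier protein that is also a subunit of complex I, had 2 probes with different sequences, and both were called, with log2 fold changes of 1.33 and 1.15. NDUFB10 was the least different gene of the complex, with a log2 fold change of 0.24 (SE 0.21, adjusted p = 0.451).

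**Figure D2:**
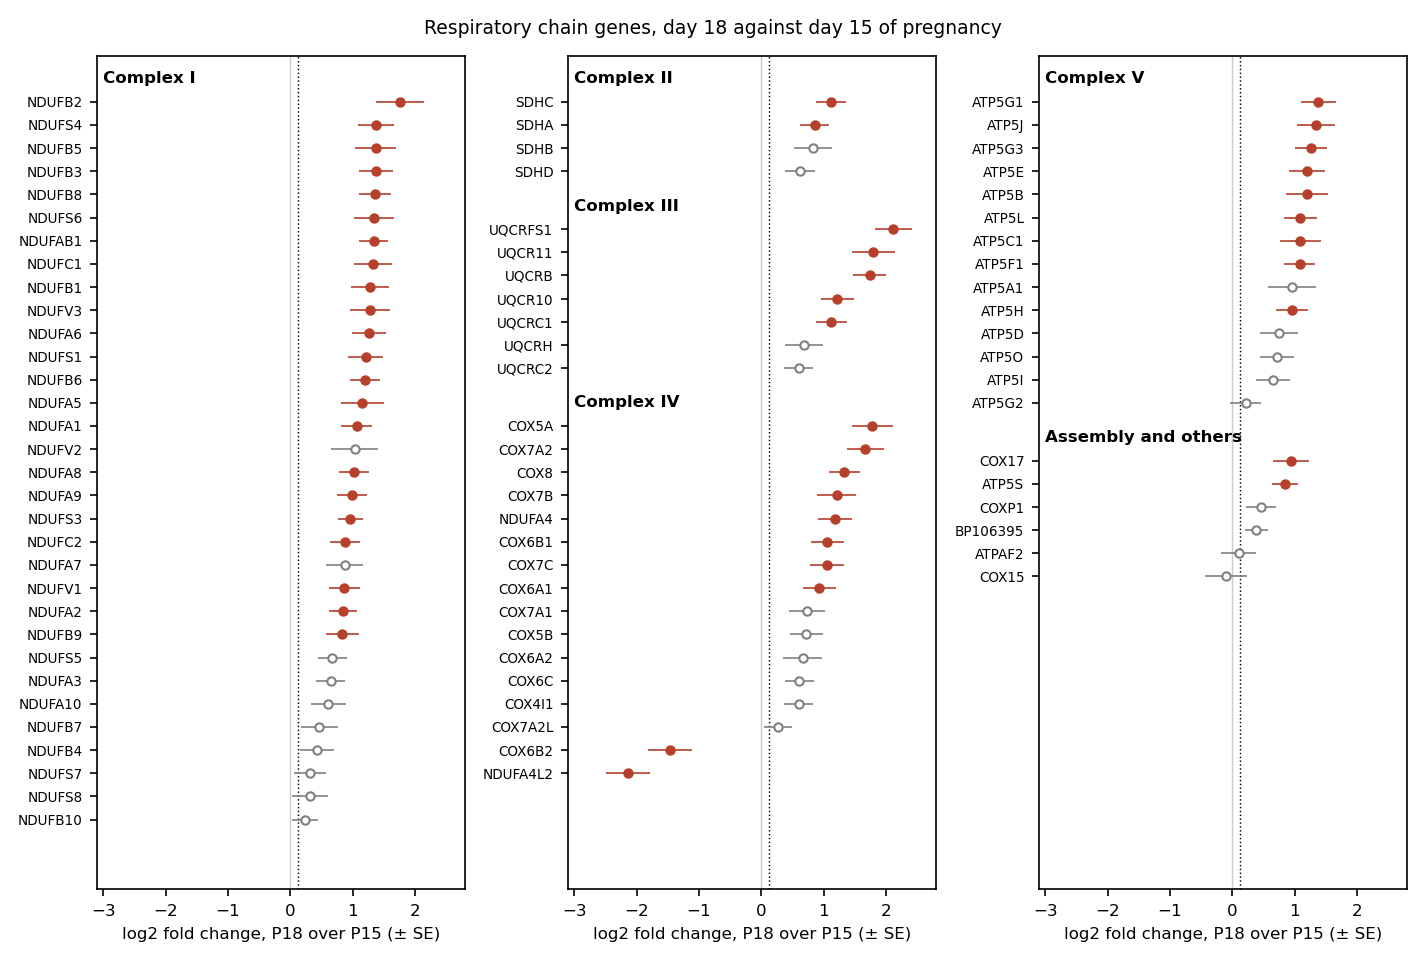
Log2 fold change of P18 over P15 with its limma standard error for 79 of the 80 genes, by complex; filled points were called at an adjusted p below 0.05, and the dotted line is the median of all probes tested, 0.12. The 48 filled points to the right spread over all complexes, and the 2 filled points to the left are COX6B2 and NDUFA4L2.

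Complex II, which is made of 4 nuclear subunits, was complete on the array, and 2 of the 4 were called higher. SDHA, the flavoprotein that oxidizes succinate, had 58.3, 72.1 and 66.6 in P15 and 118, 107, 123 and 125 in P18 (log2 fold change of 0.85, SE 0.23, adjusted p = 0.0243). SDHC, one of the membrane anchors, had 50.3, 59.8 and 58.3 in P15 and 96.1, 117, 149.7 and 129 in P18 (log2 fold change of 1.12, SE 0.24, adjusted p = 0.00822). The iron-sulfur subunit SDHB and the anchor SDHD had log2 fold changes of 0.83 (SE 0.31, adjusted p = 0.0773) and 0.62 (SE 0.24, adjusted p = 0.0932), respectively. All 4 genes had every P18 array above each P15 array.

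Complex III had 5 of 7 genes called, with a median log2 fold change of 1.21. UQCRFS1, the Rieske iron-sulfur protein that takes electrons from ubiquinol, had the largest rise of the 80 genes. Its signals were 25.6, 13.5, 11.9 and 16.4 in NP15, 8.87, 8.54 and 10.2 in P15, 17.7, 26.5, 21.5 and 29.2 in NP18 and 28.7, 35.7, 54.1 and 45.5 in P18. P15 was below every other array, P18 overlapped with 1 array of NP18, and the log2 fold change of P18 over P15 was 2.12 (SE 0.29, adjusted p = 0.000909). UQCR11, a small subunit of the complex, had 28.6, 26.6 and 32.0 in P15 and 86.1, 98.0, 115 and 105 in P18 (log2 fold change of 1.80, SE 0.35, adjusted p = 0.00559). UQCRB, which contributes to ubiquinone binding, had 23.8, 26.0 and 21.2 in P15 and 62.3, 71.9, 112 and 75.9 in P18 (log2 fold change of 1.74, SE 0.27, adjusted p = 0.00155). Among the core proteins UQCRC1 was called, at 1.12 (SE 0.25, adjusted p = 0.0102), and UQCRC2 was not, at 0.60 (SE 0.23, adjusted p = 0.0891).

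Complex V had 9 of 14 genes called and all 14 numerically higher, with a median of 1.08. In the catalytic F1 head, ATP5B, the beta subunit that carries the active sites, had 17.9, 17.4 and 19.6 in P15 and 35.3, 35.8, 49.7 and 48.0 in P18 (log2 fold change of 1.19, SE 0.34, adjusted p = 0.0293). ATP5C1, the central gamma shaft, rose by 1.09 (SE 0.33, adjusted p = 0.0355) on the log2 scale. ATP5A1, the alpha subunit, had 76.4, 76.0 and 75.6 in P15 and 122, 145, 182 and 149.8 in P18 but was not called, with a log2 fold change of 0.96 (SE 0.38, adjusted p = 0.0984). In NP15, whose spread enters the same fit, 1 array was at 24.2 and the others at 75.4 to 101. The 3 genes for the proton-carrying c subunit of the rotor, which encode the same mature protein, were not all called. ATP5G1 had 39.9, 41.3 and 37.0 in P15 and 83.2, 98.0, 114 and 117 in P18 (log2 fold change of 1.38, SE 0.28, adjusted p = 0.00745), and ATP5G3 had a log2 fold change of 1.26 (SE 0.25, adjusted p = 0.00614). ATP5G2 had 119, 129 and 101 in P15 and 131, 137, 127 and 140.0 in P18, which overlapped, and its log2 fold change was 0.21 (SE 0.25, adjusted p = 0.6); the difference between the 3 genes was not tested. ATP5I, subunit e of the membrane part, had a log2 fold change of 0.65 (SE 0.28, adjusted p = 0.121). Of the 6 remaining genes COX17, a copper carrier for complex IV, and ATP5S were called higher. The probe of COX17 counted here had a log2 fold change of 0.94. Its second probe was dim, well above background in only 2 of the 4 arrays of P18, and no fold is given for it. COX15, which makes heme A for complex IV, had -0.10 (SE 0.34, adjusted p = 0.867), and ATPAF2, which assembles the F1 head, had 0.10 (SE 0.28, adjusted p = 0.84).

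Complex IV was the one with members that moved in opposite directions, 8 of 16 called higher and 2 lower. COX5A, a nuclear subunit on the matrix side, had 16.1, 17.7 and 16.8 in P15 and 47.0, 44.0, 81.2 and 66.6 in P18 (log2 fold change of 1.78, SE 0.33, adjusted p = 0.00426). COX4I1, the common isoform of the largest nuclear subunit, had 127, 127 and 129 in P15 and 196, 197, 185 and 196 in P18, with no overlap but a log2 fold change of 0.60 (SE 0.23, adjusted p = 0.0885). Among genes with tissue isoforms, COX7A2, the widely expressed form, rose from 37.1, 43.0 and 32.6 in P15 to 92.5, 101, 141 and 148 in P18 (log2 fold change of 1.66, SE 0.30, adjusted p = 0.00376). COX7A1, known from heart and skeletal muscle, had 28.2, 32.7 and 24.5 in P15 and 43.1, 54.1, 61.5 and 33.3 in P18 and a log2 fold change of 0.73 (SE 0.29, adjusted p = 0.0953). COX7A2L, a related protein that joins complexes III and IV, had 0.27 (SE 0.22, adjusted p = 0.434). COX8 and COX6A1, the latter the general isoform of subunit VIa, rose by 1.33 (SE 0.24, adjusted p = 0.00422) and 0.93 (SE 0.26, adjusted p = 0.0276) on the log2 scale. COX6A2, the muscle form of subunit VIa, was close to background, with signals of 0.0684 to 0.215 in all 15 arrays and a log2 fold change of 0.66 (SE 0.32, adjusted p = 0.161).

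NDUFA4L2 fell on day 18 of pregnancy. It is a paralog of NDUFA4 known to be induced by hypoxia, and NDUFA4 is now counted as a subunit of complex IV. NDUFA4L2 had signals of 2.02, 1.88, 1.34 and 3.45 in NP15, 1.16, 1.61 and 1.84 in P15, 1.49, 0.973, 2.71 and 1.64 in NP18 and 0.388, 0.367, 0.253 and 0.384 in P18. The 4 arrays of P18 were below each of the other 11 arrays, which overlapped among the 3 groups. The log2 fold change was -2.14 (SE 0.36, adjusted p = 0.00243) for P18 over P15 and -2.22 (SE 0.33, adjusted p = 0.00121) for P18 over NP18, and the exact two-sided permutation test gave p = 0.0286 for each, the smallest it allows with these group sizes. NDUFA4 itself had 84.3, 83.9 and 81.7 in P15 and 157, 167, 245 and 199.7 in P18 and rose, with a log2 fold change of 1.18 (SE 0.27, adjusted p = 0.0123). Against NP18 its log2 fold change was 0.42 (SE 0.25, adjusted p = 0.338). Of 11 other genes listed as hypoxia-responsive, 1 was called higher and 0 lower in P18 than in P15, beside 10.9% and 5.48% of all probes. At an unadjusted p below 0.05 in limma 3 were higher and 0 lower, and the median was 0.33. In P18 against NP18, 2 of the 11 were called higher and 1 lower, beside 4.51% and 2.4% of all probes, with a median of 0.06.

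COX6B2, an isoform of subunit VIb known from testis, was lower on day 18 in both states. Its signals were 4.74, 6.20, 11.98 and 4.29 in NP15, 3.10, 3.16 and 2.63 in P15, 1.26, 1.95, 2.62 and 1.66 in NP18 and 1.22, 0.936, 0.768 and 1.49 in P18. The groups of day 18 lay below NP15, and P18 lay below P15. The log2 fold change was -1.46 (SE 0.35, adjusted p = 0.0141) for P18 over P15 and -1.79 (SE 0.33, adjusted p = 0.00489) for NP18 over NP15. Between pregnant and non-pregnant cows it was -1.08 (SE 0.35, adjusted p = 0.18) on day 15 and -0.76 (SE 0.33, adjusted p = 0.171) on day 18. The general isoform COX6B1 had 45.5, 45.9 and 48.9 in P15 and 83.9, 93.5, 106 and 108 in P18 (log2 fold change of 1.06, SE 0.27, adjusted p = 0.0173).

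**Figure D3:**
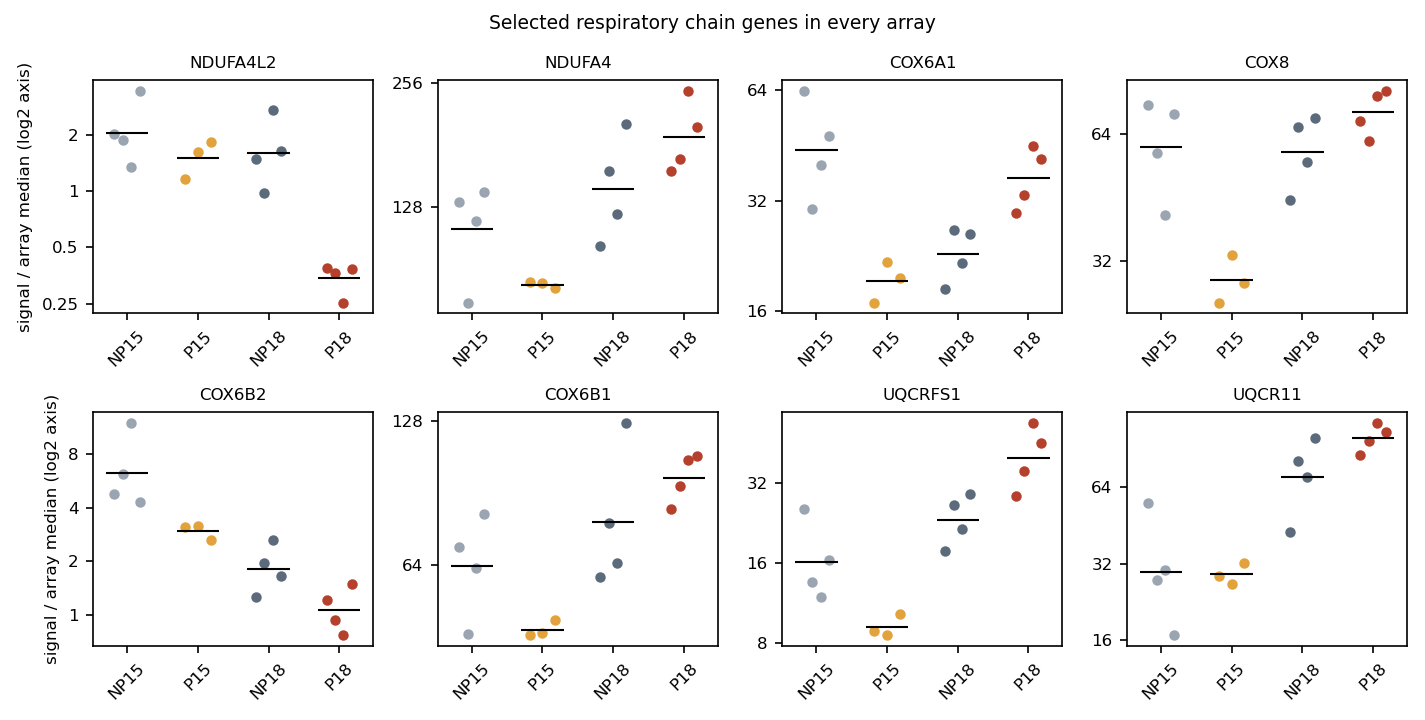
Signal of 8 genes in every array (points) with the mean of log2 values (line), in array medians on a log2 axis that differs between panels. NDUFA4L2 is at 0.253 to 0.388 in P18 and at 0.973 or above elsewhere, while its paralog NDUFA4 has its highest mean in P18. COX6B2 is lower on day 18 and COX6B1 is not.

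Pregnant and non-pregnant cows of day 15 were compared next. Of the 80 genes 0 were called higher and 1, COX6A1, lower in P15 than in NP15, where 0.38% and 0.577% of all probes were called. At an unadjusted p below 0.05, limma had 2 genes higher and 17 lower, beside 5.92% and 8.94% of all probes. The median log2 fold change was -0.36 and that of all probes was -0.06, and 67 of 80 genes were numerically lower, 59 after division by the 75th percentile and 55 after quantile normalization. In 22 genes every P15 array lay below each NP15 array and in 4 above, with 9.71% and 5.93% of all probes doing so.

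COX6A1 had signals of 64.0, 30.5, 40.04 and 48.0 in NP15 and 16.9, 21.8 and 19.7 in P15, without overlap. The log2 fold change was -1.18 (SE 0.26, adjusted p = 0.047), and the call was lost in 12 of 15 fits that left out 1 array. COX8, named on the array as the heart form of subunit VIII and by RefSeq as COX8A, had 75.3, 57.9, 41.1 and 71.4 in NP15 and 25.4, 32.97 and 28.3 in P15 (log2 fold change of -1.06, SE 0.24, adjusted p = 0.0554) and was not called. NDUFV1 and NDUFA10, the latter an accessory subunit of complex I, were next by unadjusted p, with log2 fold changes of -0.80 (SE 0.25, adjusted p = 0.162) and -0.88 (SE 0.28, adjusted p = 0.179). The 3 genes with the lowest unadjusted p among those numerically higher in P15 were COX15 (0.94, SE 0.34, adjusted p = 0.213), UQCRC2 (0.59, SE 0.23, adjusted p = 0.248) and BP106395 (0.35, SE 0.19, adjusted p = 0.408). UQCRC2 had 22.6, 17.3, 18.9 and 28.0 in NP15 and 31.8, 32.5 and 32.2 in P15.

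On day 18, few respiratory chain genes were called between pregnant and non-pregnant cows. ATP5S was called higher and NDUFA4L2 lower in P18 than in NP18, 1 gene of 80 in each direction, where 4.51% and 2.4% of all probes were called. At an unadjusted p below 0.05, 14 genes were higher in limma, beside 13.8% of all probes, and in 9 genes every P18 array was above each NP18 array, beside 10.5%. The median was 0.29 and that of all probes was 0.07, with 66 of 80 genes numerically higher, 61 after division by the 75th percentile and 56 after quantile normalization. ATP5S, factor B of the ATP synthase, had 5.78, 3.94, 3.63 and 4.51 in NP18 and 6.46, 7.50, 7.03 and 7.29 in P18, separated but with a log2 fold change of 0.68 (SE 0.19, adjusted p = 0.0479). This call was lost in 11 of 15 fits that left out 1 array. UQCRFS1, COX6A1 and NDUFAB1 followed, not called, with log2 fold changes of 0.77 (SE 0.27, adjusted p = 0.0999), 0.69 (SE 0.24, adjusted p = 0.102) and 0.57 (SE 0.21, adjusted p = 0.115). On the lower side, after COX6B2, NDUFA10 had -0.34 (SE 0.26, adjusted p = 0.462) and ATPAF2 -0.31 (SE 0.26, adjusted p = 0.494).

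The pregnancy difference of day 18 was then tested against that of day 15. This interaction was called higher for 3 genes and lower for 0, where 2.07% and 0.653% of all probes were called. At an unadjusted p below 0.05 there were 26 genes higher and 1 lower in limma, beside 12.6% and 6.65% of all probes. The 3 genes were COX6A1 (1.87, SE 0.35, adjusted p = 0.0162), UQCRFS1 (1.59, SE 0.40, adjusted p = 0.0482) and COX8 (1.37, SE 0.33, adjusted p = 0.042). For COX6A1 the signals of 18.4, 26.6, 21.7 and 26.0 in NP18 lay below those of 29.6, 33.1, 45.2 and 41.7 in P18, whereas on day 15 the pregnant group was the lower. COX8 had 44.7, 66.7, 54.9 and 70.1 in NP18 and 68.9, 61.8, 78.9 and 81.3 in P18, which overlapped. Without 1 array in turn, the interaction stayed called in 14 of 15 fits for COX6A1, 3 for UQCRFS1 and 2 for COX8. The interaction of NDUFA4L2 was -1.78 (SE 0.48, adjusted p = 0.0619).

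Among non-pregnant cows, 9 genes were called higher and 2, COX6B2 and COX6A1, lower on day 18 than on day 15, where 4.65% and 6.15% of all probes were called. The median was 0.37 and that of all probes was 0.02. UQCR11 had the largest rise, from 55.3, 27.5, 30.1 and 16.7 in NP15 to 42.7, 81.5, 70.04 and 100.1 in NP18, a log2 fold change of 1.25 (SE 0.32, adjusted p = 0.0261). Those groups overlapped. UQCRB, at 29.95, 18.9, 21.6 and 23.6 in NP15 and 42.3, 49.3, 44.5 and 78.0 in NP18, and COX7A2, at 49.2, 35.3, 42.2 and 64.8 in NP15 and 73.0, 96.6, 89.6 and 166 in NP18, did not overlap, with log2 fold changes of 1.16 (SE 0.25, adjusted p = 0.0106) and 1.12 (SE 0.27, adjusted p = 0.0214). The other genes called higher were NDUFS6 (1.16), NDUFC1 (1.05), NDUFB1 (0.97), ATP5E (0.91), NDUFS4 (0.91) and NDUFA1 (0.89), small subunits of complexes I and V. COX6A1 had a log2 fold change of -0.94 (SE 0.24, adjusted p = 0.0248). COX6A2, ATPAF2 and the pseudogene COXP1 were the next on the lower side, not called, with -0.58 (SE 0.29, adjusted p = 0.206), -0.36 (SE 0.26, adjusted p = 0.391) and -0.29 (SE 0.22, adjusted p = 0.408). The signal of COX6A2 was well above background in only 2 arrays of NP18 and 2 of P18, so its folds are imprecise. Without replicate 2 of NP15 or replicate 4 of NP18, 1 gene was called higher, and without replicate 2 of NP18, 2 were, while 15 were without replicate 1 of NP18.

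**Figure D4:**
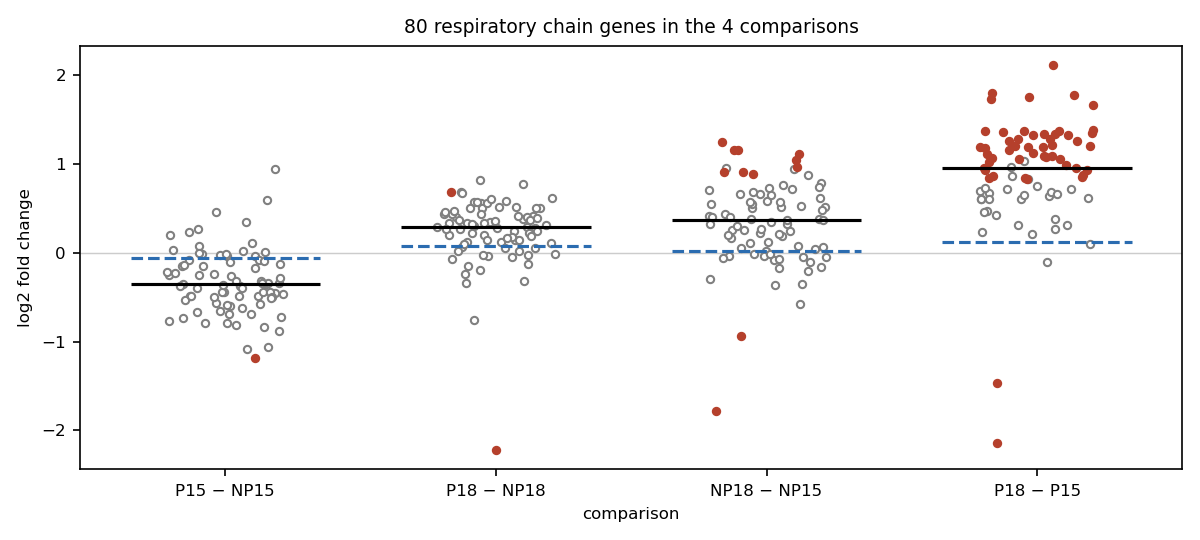
Log2 fold changes of the 80 genes in the 4 comparisons (points; filled where called at an adjusted p below 0.05), with their median (solid line) and the median of all 13164 probes tested (dashed line). The medians of the genes are -0.36, 0.29, 0.37 and 0.96 from left to right, against -0.06, 0.07, 0.02 and 0.12.

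**Figure D5:**
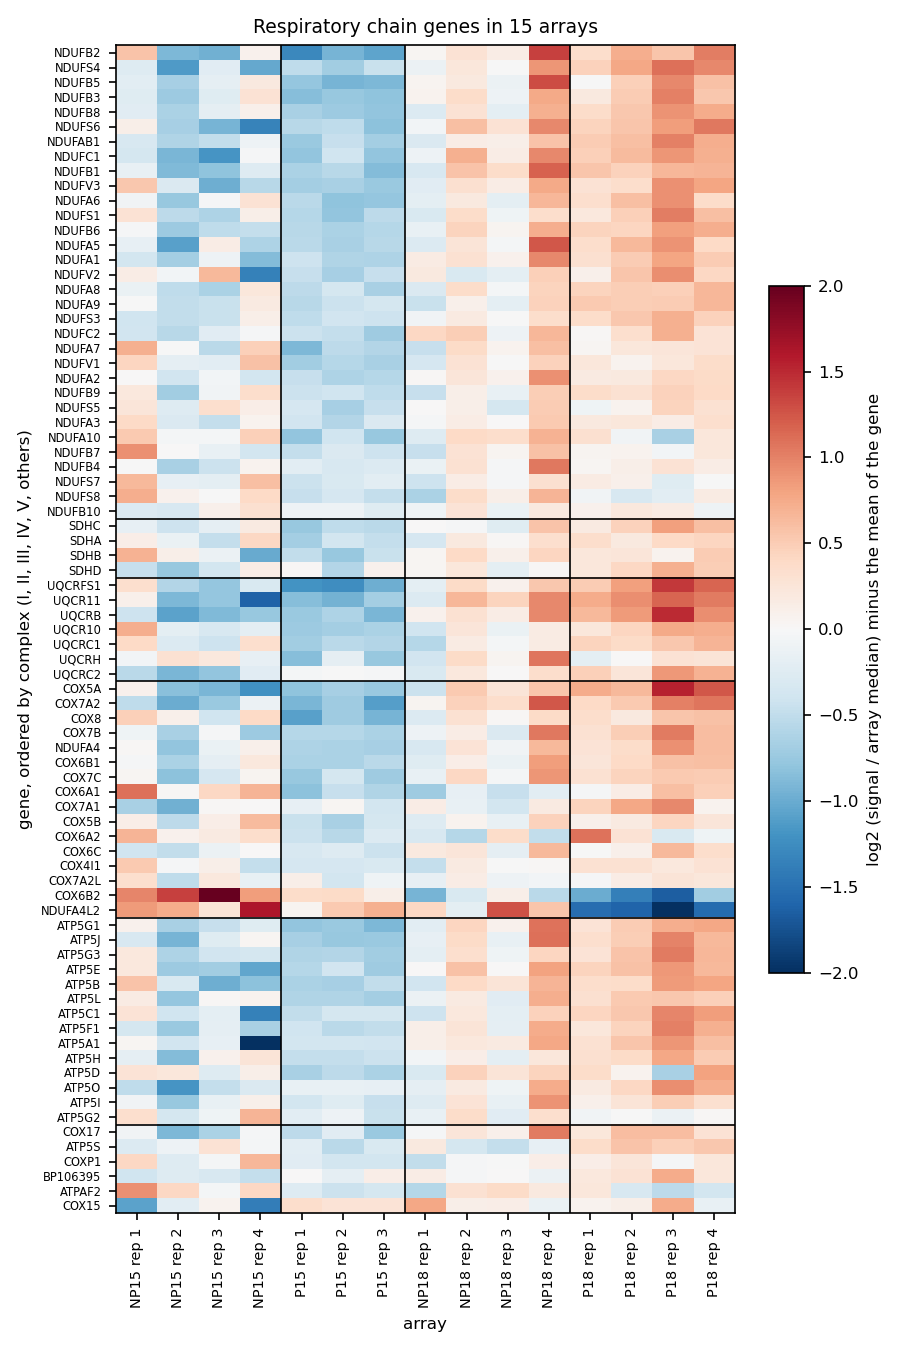
Log2 (signal / array median) of 79 of the 80 genes, each minus its mean over 15 arrays, with genes in rows by complex (horizontal lines separate complexes I to V and the 6 others) and arrays in columns by group; the color scale ends at -2 and 2. The P15 columns are mostly below 0 and the P18 columns above 0, with COX6B2 and NDUFA4L2 reversed, and NP18 replicate 4 stands above the rest of its group.

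The scaling of the arrays shifted all genes together. Division by the 75th percentile in place of the median moved the median of all probes for P18 over P15 from 0.12 to -0.18, and that of the 80 genes from 0.96 to 0.66. Relative to all probes the genes stood 0.84 higher with both scalings. The equality is fixed in advance, since each of these scalings divides an array by 1 value. After quantile normalization or normexp the genes stood 0.67 higher. Of 80 genes 77 were numerically higher in P18 by the median and by normexp, and 73 by the 75th percentile and by quantile normalization. Of the 48 genes called higher, 37 were shared with the calls after division by the 75th percentile and 36 with those after quantile normalization.

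Other mitochondrial and energy genes were described from lists without the 80 genes. In P18 against P15, 10.9% of all probes were called higher and 5.48% lower, and 17.8% of the brightest 3291 probes were called higher. Of 17 genes of the tricarboxylic acid cycle and of pyruvate entry, 8 were called higher in this comparison and 1 lower, with a median log2 fold change of 0.66. FH, the fumarase that acts after succinate dehydrogenase, was higher by 1.19 (SE 0.24, adjusted p = 0.00645), PDHX, a part of the pyruvate dehydrogenase complex, by 1.02 (SE 0.19, adjusted p = 0.0049), and SUCLG2, a subunit of succinyl-CoA ligase, by 1.20 (SE 0.27, adjusted p = 0.0102). Of 17 electron and membrane carriers 5 were called higher and 0 lower (10 and 0 at an unadjusted p below 0.05 in limma), with a median of 0.57. Among them were SLC25A5, which exchanges ADP and ATP across the inner membrane (2.42, SE 0.35, adjusted p = 0.00109), and CYCS, cytochrome c, which links complexes III and IV (1.88, SE 0.39, adjusted p = 0.00748). The mitochondrial ribosome had 14 of 48 genes called higher and 2 lower, with a median of 0.55, and protein import into mitochondria had 3 of 13 higher and 0 lower (8 and 0 unadjusted), with a median of 0.50.

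In the same comparison, with 10.9% of all probes called higher and 5.48% lower, 1 of 12 assembly factors, COA4, was called higher and 0 lower. At an unadjusted p below 0.05 in limma 6 assembly factors were higher, and the median was 0.56. Of 10 genes of mitochondrial biogenesis and transcription 2 were called higher, and the median of the 10 was 0.50. Among the 2 was TFAM, which packages mitochondrial DNA and activates its transcription (1.04, SE 0.34, adjusted p = 0.0481). Redox defence had 2 of 10 called higher, SOD2, the superoxide dismutase of mitochondria (1.28, SE 0.29, adjusted p = 0.0111), and GLRX2, with a median of 0.52. Glycolysis and lactate transport had 1 of 14 called higher, SLC16A1, a lactate and pyruvate transporter (2.68, SE 0.48, adjusted p = 0.00382), with a median of 0.39. Assembly factors and glycolysis genes were called higher about as often as all probes. The cytosolic ribosome had 2 of 66 called higher and 3 lower, with a median of -0.06.

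Markers of other cell types moved with the groups as well. The 8 epithelial markers were numerically lower in P15 than in NP15 in 8 of 8 genes, with 0 called (3 at an unadjusted p below 0.05 in limma). Their summed signal was 275 to 352 in NP15, 140 to 189 in P15, 139 to 394 in NP18 and 241 to 342 in P18. In P18 against P15, 2 were called higher and 2 lower, where 10.9% of all probes were called higher and 5.48% lower. The orders of epithelial sum and respiratory chain level matched only in part. Replicate 1 of NP18 had the lowest sum of its group, 139, and the lowest level, -0.170 beside 0.00235 to 0.569. The highest sum of NP18, 394 in replicate 2, came with 0.233, and 297 in replicate 4 with 0.569. In P18 the lowest sum, 241 in replicate 3, came with the highest level, 0.543. In NP15 the lowest sum, 275 in replicate 2, came with the lowest level, -0.450, and the highest, 352 in replicate 3, with -0.237. P15 was at -0.515 to -0.476. The stromal markers summed to 913 to 1791, 1237 to 1374, 768 to 1294 and 778 to 971 in the same order of groups, with 3 of 10 called lower in P18 than in P15. The 11 trophoblast markers, of which 6 were called higher in P18 than in P15, summed to 1.08 to 5.60 in the arrays of the other groups and to 2.81, 139, 83.1 and 575 in replicates 1 to 4 of P18. Replicate 1 of P18, with the lowest trophoblast sum, also had the lowest respiratory chain level of its group, 0.240 beside 0.327 to 0.543, and the lowest value of the group for 52 of the 80 genes. In this array 75 of the 80 genes were above each array of P15, beside 72 to 76 in the other replicates. The highest trophoblast sum, 575 in replicate 4, came with a level of 0.468. The highest level of P18, 0.543, was that of replicate 3, with a sum of 83.1. The 17 leukocyte markers summed to 8.29 to 17.7 in the other groups and to 18.1 to 34.7 in P18. Of the 17, 2 were called higher in P18 than in P15, near the share of all probes, 10.9%. Of 15 proliferation markers 5 were called higher in P18 than in P15, with a median of 0.94, and of 14 interferon-responsive genes 12 were, with a median of 2.94. Of 9 smooth muscle, 10 endothelial and 6 striated muscle markers, 3, 3 and 0 were called lower and 0 higher, and of 2 erythrocyte markers 0 in either direction (smooth muscle 4 and endothelial 5 lower, striated muscle 1 in each direction and erythrocyte 1 higher at an unadjusted p below 0.05 in limma). The trophoblast list had 16 genes on the array, and the 5 not counted here were not well above background in 3 arrays. The part of the trophoblast, epithelial, stromal, leukocyte and proliferating cells in the respiratory chain differences was not tested, and in whole tissue fewer cells of a type cannot be told apart from less RNA per cell.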

How the data were processed

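Each array was a custom 1-color Agilent bovine oligonucleotide array, hybridized with Cy3-labeled cRNA of 1 cow. The deposited intensity values were made by the authors with Feature Extraction 9.5 and are background-subtracted but not scaled between arrays. The deposited log2 table of the same arrays, a per-array GeneSpring normalization by the authors that lies near a scaling to the 75th percentile, was used as an alternative. Of the scanner files, outlier spots were dropped, signals were scaled to the array median of 15208 probes, and log2 was taken. The 13164 probes that were well above background on 3 or more of 15 arrays entered limma 3.58.1 in R 4.3.3 as 4 groups, with Benjamini-Hochberg adjustment over all of them and calls at an adjusted p below 0.05. The fit pools the spread of all 4 groups. Single genes were also compared with an exact two-sided permutation test of mean log2 values. A gene with several probes was counted by its brightest probe. Array depth has no counts, and the number of cows limits the precision. The script was tested on simulated data. In simulated arrays with 200 of 13130 probes changed, the fit called 0.0% of them at a log2 change of 0.5. Depending on the comparison, it called 0.0 to 10.0% at a change of 1 and 53.5 to 65.0% at 1.5. A gene that was not called can therefore still differ. In P18 against P15 of the real arrays, 10.9% of all probes were called higher and 5.48% lower, more than the simulation changed. The adjustment is less strict there, so the simulated shares do not give the sensitivity of that comparison. The members and the gene lists were chosen with earlier results of these data known.

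The genes named were those called, up to 8 per direction and comparison, or else the 3 of lowest unadjusted p, all of complex II, the isoforms and the core subunits, except 1 gene that is counted with the rest but not reported here by name. ATP5F1, ATP5G2, ATP5G3, COX17, NDUFA1 and NDUFB10 were named after their values were seen, as was any gene in the test of day 18 against day 15. Gene names are those of the array, and 78 of the 84 probes could be matched to RefSeq. UQCRH, UQCRB, COX6C, COX7A2L and the COX17 probe counted here were named from their descriptions. UQCR10, NDUFA4L2, COX15 and ATPAF2 carried locus numbers on the array, which RefSeq matches to these names. Lists of assembly factors, biogenesis, tricarboxylic acid cycle, glycolysis, carriers, redox defence, mitochondrial ribosome, import, cytosolic ribosome, hypoxia and cell type markers were described by counts and medians. Alternatives were other scalings and backgrounds, filters, array weights, slide, scan day and replicate number as blocks, the methods' t-test, and leaving out each array. The study gives 4 animals per stage, and 3 arrays of P15 were analysed here.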

Additional observations from a re-analysis of the deposited data

Results flagged for a closer look

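Among 153 groups of 4 arrays tested, 5 held 1 array whose gap to the rest was beyond the 95% critical value of Dixon's test, where chance gives about 1 group in 20. ATP5A1 was at 169 in replicate 4 of NP18 and at 107 to 113 in the other arrays of the group. BP106395 was at 12.2 in replicate 3 of P18, with 8.44 to 8.89 in the others. COX4I1 was at 185 in replicate 3 of P18, with 196 to 197 in the others. NDUFA4L2 was at 0.253 in replicate 3 of P18, with 0.367 to 0.388 in the others. NDUFS3 was at 55.3 in replicate 4 of NP15, with 36.5 to 38.6 in the others.

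The limma interaction of pregnancy and day was called higher for 3 of the 80 genes, beside 2.07% of all probes. It was 1.87 for COX6A1, 1.586 for UQCRFS1 and 1.37 for COX8 on the log2 scale. Without 1 array in turn, the call was lost in 1, 12 and 13 of 15 fits, respectively, and the scan day block left 0 calls. In all 3 the pregnant group was numerically lower on day 15 and higher on day 18.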

How the results depend on the processing

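In P18 against P15, 50 of the 80 genes were called, and 38 to 72 were under the other scalings, filters, tests and the slide block (72 with array weights), while the scan day block left 0. Of all 13164 probes, 10.9% were called higher and 5.48% lower in the main fit, 1622 were called with the slide block and 0 with the scan day block. For the other settings in this section the share of all probes is not given, so a changed count is not a result about these genes alone. Without 1 array in turn 25 to 55 were called. Replicate numbers named different cows. Deviations of arrays with 1 number correlated at -0.259 to 0.304 over 21 pairs, and whether such arrays shared a step of processing was not tested. With the replicate number as a block, the calls were 36 for P18 against P15, 5 for NP18 against NP15, 1 for P18 against NP18, 0 for P15 against NP15 and 1 for the interaction.

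In NP18 against NP15, with 11 calls, there were 31 with array weights, 27 with normexp, 17 with the filter on all 15 arrays, 17 with the trended robust fit, 19 with the methods' t-test unadjusted and 0 adjusted, 6 over 2-fold, 0 with the 2 groups alone, 0 with the scan day block and 3 to 17 without 1 array. In P15 against NP15, with 1 call, there were 16 with array weights, 2 with normexp, with the all-array filter and with the trended fit, 19 with the unadjusted t-test, 0 with no filter, the 2 groups alone, either block of slide or scan day and the adjusted t-test, and 0 to 2 without 1 array (2 without replicate 3 of NP15 or replicate 1 of NP18). In P18 against NP18, with 2 calls, there were 10 with array weights, 18 with the unadjusted t-test, 1 with the 75th percentile, quantile normalization, the authors' table, no filter, the slide block, the 2 groups alone, the adjusted t-test or the limit of 2-fold, 3 with normexp, 0 with the scan day block and 1 to 2 without 1 array. For the interaction, with 3 calls, there were 9 with array weights, 8 with normexp, 1 with the 75th percentile, the authors' table, no filter or the slide block, 2 with quantile normalization, 0 with the scan day block and 0 to 4 without 1 array (0 without replicate 1 of P15).

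The difference of complex level between P18 and P15 was smaller with the 75th percentile, quantile normalization and the authors' table, at 0.682, 0.602 and 0.684 for complex I, 0.559, 0.478 and 0.560 for II, 1.03, 0.964 and 1.03 for III, 0.340, 0.328 and 0.341 for IV and 0.694, 0.604 and 0.696 for V, and for complex II in P15 against NP15 it was -0.162 with quantile normalization. Small values changed sign for ATPAF2 in P18 against NP18 (0.0029 with normexp), and in P18 against P15 for COX15 (0.0557 with the replicate block, and -0.2849 to 0.0100 without 1 array, the latter without replicate 4 of P18), COX7A2L (-0.0311, -0.0551 and -0.0294 with the 75th percentile, quantile normalization and the authors' table) and NDUFS7 (-0.0182 with quantile normalization). Of the other values for single genes, 1366 kept their direction and their side of the threshold, 222 lost a call and 13 gained one. The causes were not tested.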
